A study of Mus musculus with 9 samples.

Results

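The genes described here are 37 mouse genes that make up the axis of the transcription factor ATF4 and the amino acid and one-carbon metabolism attached to it. They were taken by name from a list of ATF4 and its relatives, enzymes of serine, folate, proline and cysteine metabolism, amino acid transporters, transaminases and cytosolic tRNA synthetases. The rule names the genes and uses no measured value of them, but the list was drawn up with earlier results of these data known. Gene positions are those of GENCODE on GRCm38. All 37 are among the 14108 genes listed in the count tables, and all 37 passed the expression filter that left 14086 genes for testing. RNA-seq was performed on GFP+ cells sorted from 9 primary mammary tumours, 3 from each of the models HR1, LM1 and LM9. HR1 is a mammary cancer line from a mouse transgenic for *PIK3CA* H1047R under the CAG promoter. LM1 and LM9 are lines grown out of the lungs of NOD/SCID mice that carried tumours of HR1 cells mutagenized with a piggyBac transposon, so the transgene is common to the 3 models, and each model is 1 line. For each tumour, 250000 cells in Matrigel and PBS were placed in the mammary fat pad of a female mouse of 4 to 8 weeks (strain label NOD.CB17-Prkcd<scid>/J), a host that lacks working T and B cells but keeps myeloid cells. Tumours were taken before 1500 mm3. The labels name no treatment. Nothing in the labels says whether the 3 tumours of a model came from separate cultures, so the p-values measure the spread between these tumours.

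ATF4 is a basic leucine zipper factor whose mRNA is translated more when kinases phosphorylate eIF2α, as happens when amino acids run short or when misfolded proteins load the endoplasmic reticulum. It binds DNA with C/EBP partners and switches on genes that make, import and load amino acids, among them serine synthesis enzymes, mitochondrial folate enzymes and tRNA synthetases. Serine feeds the folate cycle, which supplies carbon units for nucleotides, and serine and homocysteine feed the transsulfuration route to cysteine. Since ATF4 is controlled in large part at translation, the mRNA level of *Atf4* is not a measure of its protein.

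The element to which ATF4 and its C/EBP partners bind has a core, TGATGNAA, that was looked for on both strands in RefSeq promoter windows of 300 bases (250 before and 50 after the transcript start, GRCm38.p6). Of the 37 genes, 31 had a window, and 11 of these 31 (35.5%) held the core, against 4.51% of all 27025 genes with a window. The genes were listed by name as the ATF4 axis, so the difference between these shares is no test of the list. The 11 were *Aars*, *Asns*, *Chac1*, *Gars*, *Got1*, *Pycr1*, *Slc1a4*, *Slc7a11*, *Tars*, *Trib3* and *Vldlr*. The cAMP response element TGACGTCA was in 0 of the 31 windows and in 2.03% of all genes. The genes *Aldh1l2*, *Cars*, *Cth*, *Nars*, *Slc1a5* and *Slc7a5* had no window. The 8 stretches of 30 bases that follow are examples from these 11. *Asns* is shown for its low level in the tumour labelled HR1 replicate 1, and the other 7 genes were each called in at least 1 of the comparisons or left-out fits described below, as was *Aars*, which is not shown. They are written 5′ to 3′ on the strand of the gene with the core in capitals, as TGATGNAA or as its reverse complement. A match is a string of letters in a window, and no binding was measured.
Chac1, chr2:119351038-119351067, plus strand: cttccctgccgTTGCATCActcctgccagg
Trib3, chr2:152344028-152344057, minus strand: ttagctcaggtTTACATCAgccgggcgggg
Asns, chr6:7693214-7693243, minus strand: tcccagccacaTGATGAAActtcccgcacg
Pycr1, chr11:120643833-120643862, minus strand: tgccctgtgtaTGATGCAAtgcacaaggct
Slc1a4, chr11:20332699-20332728, minus strand: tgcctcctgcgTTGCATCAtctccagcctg
Tars, chr15:11399655-11399684, minus strand: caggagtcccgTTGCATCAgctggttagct
Vldlr, chr19:27216809-27216838, plus strand: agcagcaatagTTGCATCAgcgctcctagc
Got1, chr19:43524689-43524718, minus strand: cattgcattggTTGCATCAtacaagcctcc
Relative to the RefSeq transcript start, the first base of the core lay at -23 in *Asns*, -15 in *Tars*, -4 in *Slc1a4* and +15 in *Trib3*. It lay farther upstream in *Got1* (-102), *Pycr1* (-103), *Chac1* (-193) and *Vldlr* (-200).

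Total counts ranged from 32393958 to 46681945 per tumour. A single tumour did not match its label in *Nfib*, the transcription factor gene by which the study divides the models into a low class (HR1) and a high class (LM1 and LM9). This was the tumour labelled HR1 replicate 1. It held 1343 CPM of *Nfib* (CPM, read counts scaled to TMM-normalised library size), against 23.9 and 18.3 CPM in HR1 replicates 2 and 3 and 420.6 to 791 CPM in the 6 LM1 and LM9 tumours. Across all genes the tumours of HR1 also agreed least among themselves (Pearson's r across genes of 0.867 to 0.955, against 0.981 to 0.988 in LM1 and 0.987 to 0.988 in LM9). The counts of calls against HR1, and the folds of the genes called, are therefore given with and without this tumour, which also enters the spread estimate of LM9 versus LM1. Of the epithelial genes, *Epcam* did not exceed 4.49 CPM and *Cdh1* did not exceed 1.20 CPM in any tumour. The basal keratin gene *Krt14* had 1.56, 31.4 and 108.9 CPM in HR1 replicates 1 to 3, 152 to 175 CPM in LM1 and 12.2 to 15.4 CPM in LM9. The collagen gene *Col1a1* lay between 6359 and 12670 CPM. Other fibroblast genes set the tumour labelled HR1 replicate 1 apart from HR1 replicates 2 and 3. The proteoglycan gene *Dcn* had 17610 CPM there against 432.4 and 329.3 CPM (15.9 to 644.5 CPM in LM1 and LM9), and *Fap* had 48.1 against 6.96 and 1.80 CPM. *Col1a2* went the other way, with 44.2 against 1472 and 2725 CPM, and had 35.0 to 73.2 CPM in LM1 and LM9.

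The 37 genes together took the smallest part of the transcriptome in HR1 and the largest in LM9. Their summed level was 4083, 6931 and 7268 CPM in HR1 replicates 1 to 3, 8380, 8235 and 9004 CPM in LM1, and 9378, 9848 and 9871 CPM in LM9. The 3 models did not overlap in this sum, and the order HR1, LM1, LM9 also held for HR1 without replicate 1. The order was not the same in each role. The sum of the transcription factors and stress targets was 683.9, 1455 and 1290 CPM in HR1 replicates 1 to 3, 1411 to 1506 CPM in LM1 and 1932 to 2028 CPM in LM9, so LM1 overlapped HR1 there. The tRNA synthetases summed to 1191 to 2023 CPM in HR1, 2335 to 2527 CPM in LM1 and 2587 to 2767 CPM in LM9. *Sesn2*, *Vldlr*, *Gpt2* and *Got1* summed to 93.4, 238.7 and 328.7 CPM in HR1 replicates 1 to 3. Their sum was 197.1 to 213.6 CPM in LM1, below HR1 replicates 2 and 3, and 388.1 to 414.4 CPM in LM9. LM1 and LM9 overlapped in the synthesis enzymes (2535 to 2935 and 2616 to 2987 CPM) and the transporters (1663 to 1831 and 1766 to 1869 CPM). Per kilobase of exon, *Atf4* had the highest mean level of the 37 genes in every model, with 234 CPM per kb in HR1, 316 in LM1 and 405 in LM9. The lowest was *Cbs*, the enzyme that begins transsulfuration, with under 0.04 CPM per kb in each model (0.0341, 0.0130 and 0.0385).

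**Figure D1:**
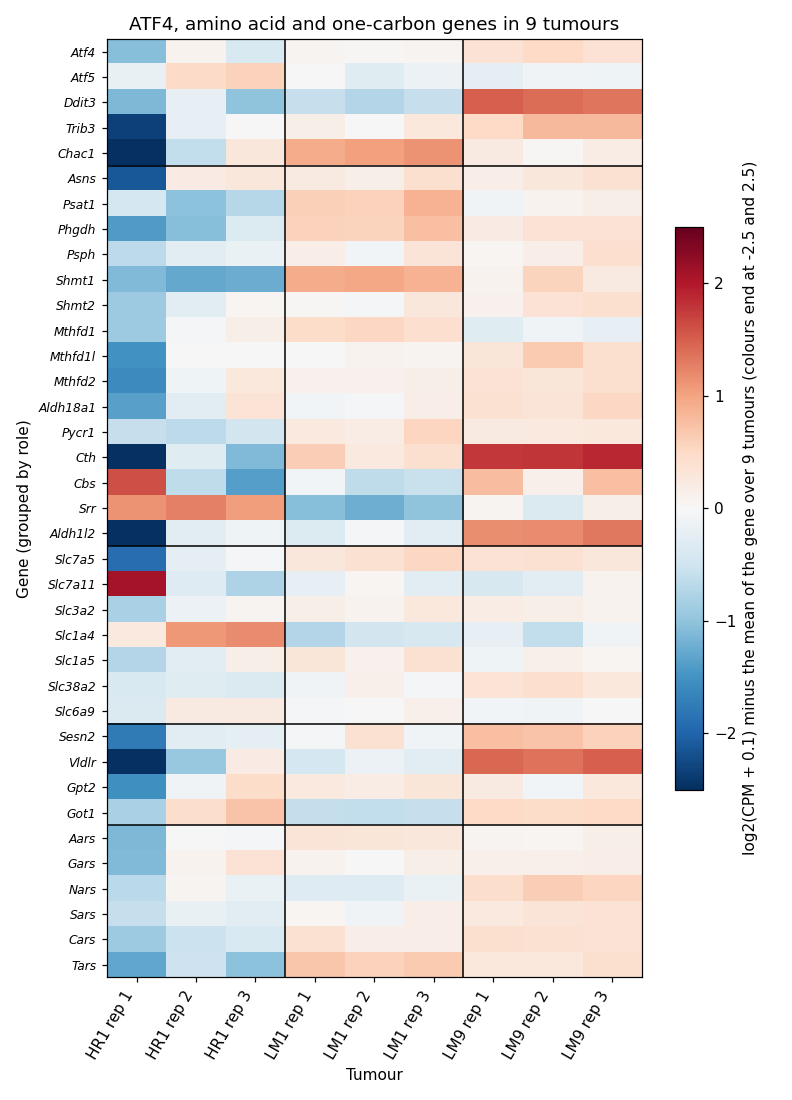
Heat map of the 37 genes (rows, grouped by role) in 9 tumours (columns): colour is log2(CPM + 0.1) minus the gene's mean over the 9 tumours, red above and blue below it. The column of the tumour labelled HR1 replicate 1 is blue in most rows, with *Slc7a11* and *Cbs* at the red end, and LM9 is red in *Ddit3*, *Cth*, *Aldh1l2* and *Vldlr*.

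The lowest of all 9 levels belonged to the tumour labelled HR1 replicate 1 in 29 of the 37 genes (23.7% of all tested genes), and the highest level was there in 2 (21.8% of all genes). It lay at least 2-fold under the mean of HR1 replicates 2 and 3 in 15 of the 37 (18.0% of all genes). The median log2 difference between it and that mean was -0.79 over the 37 genes and -0.05 over all tested genes. *Asns*, asparagine synthetase, had 46.7 CPM there and 234 and 248 CPM in replicates 2 and 3. *Chac1*, which degrades glutathione, had 12.9 CPM against 76.8 and 143.5 CPM. *Slc7a11*, the cystine-glutamate exchanger, stood the other way, with 80.3 CPM in the tumour labelled HR1 replicate 1 and 11.04 to 20.3 CPM in the other 8 tumours. This tumour thus held both the low end of most of these genes and the high end of *Slc7a11*.

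LM1 was compared with HR1 to find genes that differ between a lung-derived line and the line it came from. Of the 37 genes, 6 were called higher in LM1 (adjusted p under 0.05) and 2 lower, or 21.6%, against 35.5% of all genes (16.7% higher and 18.7% lower). The 6 were *Psat1*, *Phgdh*, *Shmt1*, *Pycr1*, *Cars* and *Tars*, and the 2 were *Srr* and *Slc1a4*. The median log2 fold change was 0.43 over the 37 genes and -0.04 over all. Without HR1 replicate 1, 12 were higher and 4 lower (43.2%, against 52.8% of all genes, 26.9% higher and 26.0% lower), and the median was 0.24. Without HR1 replicate 3, 14 were higher and 2 lower (43.2%, against 36.6% of all genes). The called share of the 37 was thus under that of all genes with 9 tumours and without HR1 replicate 1, and above it without HR1 replicate 3.

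For LM9 versus HR1, 16 of the 37 were called higher and 2 lower, or 48.6%, against 42.3% of all genes (20.4% higher and 21.9% lower), with a median log2 fold change of 0.68 (-0.05 over all). Without HR1 replicate 1 the counts were 21 and 3 (64.9%, against 55.7% of all genes, 27.9% higher and 27.8% lower), with a median of 0.46. The 16 included *Atf4*, *Ddit3*, 7 enzymes, *Slc38a2*, *Sesn2*, *Vldlr* and 4 tRNA synthetases. With only LM9 and HR1 in the fit, *Atf4*, *Psph*, *Cth*, *Aldh1l2* and *Sesn2* were no longer called (adjusted p = 0.0519 to 0.0869). *Srr* and *Slc1a4* were again lower. The 3 tumours of LM9 lay above all 3 of HR1 in 23 of the 37 genes (28.0% of all genes) and below them in 2 (25.3%). For LM1 against HR1 these numbers were 16 (23.9%) and 2 (21.7%). Without HR1 replicate 1 they were 24 and 5 for LM9, and 18 and 6 for LM1. A lack of overlap is easier to reach with fewer HR1 tumours, and the shares of all genes without that tumour were not computed. Nothing about the 37 genes is read from these last counts. With LM1 and LM9 averaged, 13 were higher and 2 lower than in HR1 (40.5%, against 43.6% of all genes, 19.9% higher and 23.6% lower), and 18 and 4 without HR1 replicate 1 (59.5%, against 56.0%, 27.5% and 28.5%). The comparisons share the 3 HR1 tumours, so they are not independent of each other.

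**Figure D2:**
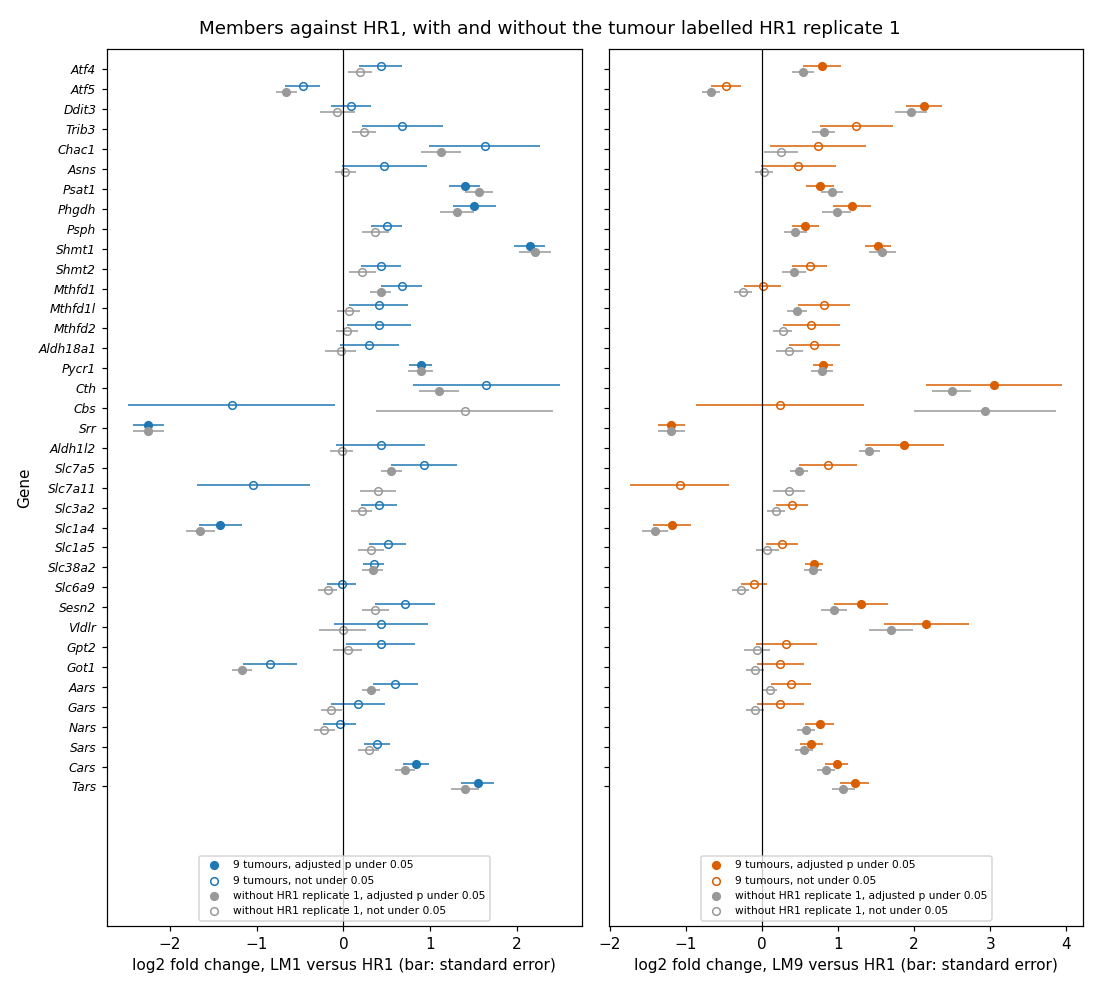
Log2 fold change with its standard error (horizontal bars) of each of the 37 genes in LM1 (left) and LM9 (right) versus HR1. Coloured points use all 9 tumours and grey points leave out the tumour labelled HR1 replicate 1, and filled points have an adjusted p under 0.05. More points are filled on the right, both coloured (18 against 8) and grey (24 against 16). The coloured bars are wide where HR1 replicate 1 stands apart, as in *Cth*, *Cbs* and *Slc7a11*.

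Among the factors and stress targets, the marked contrast was in *Ddit3* (Entrez 13198, chr10:127290774-127296288), which encodes CHOP, a C/EBP-family factor induced downstream of ATF4 in endoplasmic reticulum stress. Its level was 74.5, 141.7 and 81.6 CPM in HR1 replicates 1 to 3, 109, 98.0 and 110.1 CPM in LM1, and 460.7, 427 and 413 CPM in LM9. Every LM9 tumour was far above every other tumour, and the ranges of HR1 and LM1 overlapped. *Ddit3* was 4.37-fold higher in LM9 than in HR1 (log2 fold change 2.13 ± 0.24 SE, adjusted p = 3.8e-04), and 3.89-fold higher without HR1 replicate 1. The log2 fold change in LM1 was 0.09 ± 0.23 (adjusted p = 0.783), and 0.44 (adjusted p = 0.037) once HR1 replicate 2, the highest of its group, was left out. Exons of other annotated genes cover 10.9% of the exon sequence of *Ddit3*, so part of its reads can be shared.

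*Atf4* itself ranged from 344.9 to 762.8 CPM in HR1, from 731.6 to 751 CPM in LM1 and from 924.3 to 1012 CPM in LM9. It was 1.73-fold higher in LM9 than in HR1 (log2 fold change 0.79 ± 0.25, adjusted p = 0.0317) and 1.46-fold higher without HR1 replicate 1 (adjusted p = 0.0107). That call stood in 2 of the 9 fits that leave out 1 tumour (log2 fold changes from 0.54 to 1.09) and was lost in the other 7, those without HR1 replicate 3 or without any 1 of the 6 LM tumours. In LM1 versus HR1 *Atf4* passed once, without HR1 replicate 2 (log2 fold change 0.74, adjusted p = 0.0273). *Trib3*, a pseudokinase that holds back ATF4 and CHOP activity, ranged from 25.7 to 131 CPM in HR1, 129.9 to 155 CPM in LM1 and 181.7 to 227.5 CPM in LM9. It did not pass the test in any pairwise comparison of the 9 tumours, but did for LM9 versus HR1 without HR1 replicate 1 (1.75-fold higher, adjusted p = 0.0013) and without replicate 3 (log2 fold change 1.62, adjusted p = 0.0377). *Chac1* had its high values in LM1, at 224 to 256 CPM, against 120.1 to 137.6 CPM in LM9 and 12.9 to 143.5 CPM in HR1. With 9 tumours its log2 fold change in LM1 versus HR1 was 1.63 ± 0.64 (adjusted p = 0.0772). It was called, and 2.19-fold higher, without HR1 replicate 1 (adjusted p = 0.00261), and also without replicate 3 (log2 fold change 2.42, adjusted p = 0.0199). *Atf5*, a factor related to ATF4, went the other way without HR1 replicate 1 and was 1.58-fold lower in LM1 and 1.59-fold lower in LM9 than in HR1 (adjusted p = 0.00132 and 0.00121). With all 9 tumours its log2 fold change was -0.47 in both (adjusted p = 0.0981 and 0.0896).

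Of the 3 serine synthesis enzymes, *Psat1* and *Phgdh* were higher than in HR1 in both lung-derived lines and *Psph* in LM9. *Psat1* (Entrez 107272, chr19:15904678-15947337), phosphoserine aminotransferase, had 382.3, 254.5 and 315 CPM in HR1 replicates 1 to 3, 784, 768.6 and 952 CPM in LM1, and 488.6, 548.8 and 573 CPM in LM9. LM1 was highest, LM9 lay between, and no tumour of either overlapped HR1. The gene was 2.63-fold higher in LM1 (log2 fold change 1.40 ± 0.18, adjusted p = 8.1e-04) and 1.69-fold higher in LM9 (0.76 ± 0.18, adjusted p = 0.00978), or 2.95-fold and 1.89-fold without HR1 replicate 1. *Phgdh* (Entrez 236539, chr3:98313170-98339990), the enzyme of the committed step, had 15.1, 19.2 and 31.5 CPM in HR1, 60.2, 59.2 and 68.2 CPM in LM1, and 46.4, 51.7 and 51.6 CPM in LM9. HR1 again lay below both lines, and *Phgdh* was 2.85-fold higher in LM1 (log2 fold change 1.51 ± 0.25, adjusted p = 0.0023) and 2.27-fold higher in LM9 (1.18 ± 0.25, adjusted p = 0.00568), or 2.48-fold and 1.97-fold without HR1 replicate 1. Of its 50-base exon windows, 47.8% also occur in other annotated genes, chiefly the pseudogenes *Gm7901* and *Gm9347*, so its counts are uncertain. *Psph*, the last enzyme of the route, ranged from 70.9 to 99.5 CPM in HR1, 105.8 to 139.7 CPM in LM1 and 115.5 to 149 CPM in LM9. It passed the test in LM9 (1.48-fold higher, adjusted p = 0.0302, and 1.36-fold without HR1 replicate 1) and missed it in LM1 (1.41-fold, adjusted p = 0.0552, and 0.0405 without HR1 replicate 3). The LM9 call was lost without LM1 replicate 1, LM9 replicate 2 or LM9 replicate 3 (left-out log2 fold changes from 0.44 to 0.67).

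Of the enzymes that move carbon units between serine, glycine and folate, the cytosolic *Shmt1* (Entrez 20425, chr11:60788104-60811718) had the larger contrast. It had 5.35, 4.73 and 4.89 CPM in HR1, 22.1, 22.9 and 21.5 CPM in LM1, and 12.4, 17.1 and 13.7 CPM in LM9. The 3 models were separate, with HR1 at the bottom in all 3 tumours, the one labelled replicate 1 included. *Shmt1* was 4.44-fold higher in LM1 (log2 fold change 2.15 ± 0.18, adjusted p = 1.4e-04) and 2.89-fold higher in LM9 (1.53 ± 0.17, adjusted p = 4.1e-04), or 4.63-fold and 3.00-fold without HR1 replicate 1. Its mitochondrial counterpart *Shmt2* did not pass the test in either line (log2 fold changes 0.43 and 0.63, adjusted p = 0.176 and 0.053), and did in both without HR1 replicate 3 (0.66 and 0.87, adjusted p = 0.0442 and 0.0147). It passed in LM9 (0.42, adjusted p = 0.0444) and not in LM1 (0.22, adjusted p = 0.264) without HR1 replicate 1. Per kilobase of exon it was the more abundant, at 115 against 1.29 CPM per kb in HR1. *Aldh1l2* (Entrez 216188, chr10:83487450-83534140), the mitochondrial enzyme that oxidizes formyl-tetrahydrofolate, had 25.4, 133 and 149.6 CPM in HR1, 126.1, 157.3 and 132.6 CPM in LM1, and 361, 363.8 and 401 CPM in LM9. All 3 LM9 tumours stood above the other 6, and LM1 overlapped HR1 replicates 2 and 3. It was 3.66-fold higher in LM9 than in HR1 (log2 fold change 1.87 ± 0.52, adjusted p = 0.0205) and 2.66-fold higher without HR1 replicate 1 (adjusted p = 3.3e-05). The call was lost when any LM9 tumour was left out (log2 fold changes over all left-out fits from 1.41 to 2.24). The folate enzymes *Mthfd1*, *Mthfd1l* and *Mthfd2* passed no test against HR1 with 9 tumours, with log2 fold changes from 0.01 to 0.81. Without HR1 replicate 1, *Mthfd1* was 1.345-fold higher in LM1 (adjusted p = 0.0135, and 0.0212 without replicate 3) and *Mthfd1l* 1.38-fold higher in LM9 (adjusted p = 0.0114).

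In the transsulfuration route, *Cth* (Entrez 107869, chr3:157894248-157925077), which releases cysteine from cystathionine, was nearly absent from the tumour labelled HR1 replicate 1. Its level was 0.133, 7.47 and 4.22 CPM in HR1 replicates 1 to 3, 14.2, 10.99 and 12.2 CPM in LM1, and 31.8, 32.2 and 34.5 CPM in LM9. The models did not overlap, and the values went up in the order HR1, LM1, LM9. *Cth* was 8.27-fold higher in LM9 than in HR1 (log2 fold change 3.05 ± 0.89, adjusted p = 0.0242), 5.615-fold without HR1 replicate 1 (adjusted p = 3.6e-05), a call lost when any LM9 tumour was left out (log2 fold changes over all left-out fits from 2.49 to 3.89). In LM1 the log2 fold change was 1.65 ± 0.85 (adjusted p = 0.161), and 1.10 ± 0.23 without that tumour (adjusted p = 0.00323). *Cbs*, the enzyme upstream of it, stayed at or under 0.698 CPM in all 9 tumours. Its highest value was that of the tumour labelled HR1 replicate 1, and no fold is given at such counts. It is among the 21 genes called higher in LM9 than in HR1 without that tumour (adjusted p = 0.0225), on counts of 16, 8 and 15 reads in LM9 against 3 and 0 in HR1 replicates 2 and 3.

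*Srr* (Entrez 27364, chr11:74906359-74925948), serine racemase, was the enzyme that was lower in both lines. It had 31.4, 34.5 and 29.6 CPM in HR1, 6.83, 6.14 and 7.14 CPM in LM1, and 14.98, 11.2 and 15.8 CPM in LM9. All HR1 tumours were above all LM9 tumours, which were above all LM1 tumours, and the tumour labelled HR1 replicate 1 did not differ from its group here. *Srr* was 4.75-fold lower in LM1 (log2 fold change -2.25 ± 0.18, adjusted p = 1.3e-04) and 2.27-fold lower in LM9 (-1.19 ± 0.18, adjusted p = 0.00126), or 4.76-fold and 2.29-fold without HR1 replicate 1. Exons of *Tsr1* and *Smg6* overlap 29.96% of its exon sequence, so part of these counts can belong to them. Of the proline enzymes, *Pycr1* ranged from 37.3 to 42.7 CPM in HR1, 66.1 to 85.0 CPM in LM1 and 68.2 to 69.9 CPM in LM9. It was 1.85-fold higher in LM1 (adjusted p = 0.00152) and 1.74-fold higher in LM9 (adjusted p = 0.00209), or 1.85-fold and 1.73-fold without HR1 replicate 1. *Aldh18a1*, which makes the precursor of proline, had log2 fold changes of 0.30 and 0.69 (adjusted p = 0.527 and 0.135), the latter 1.14 (adjusted p = 0.0156) without HR1 replicate 3. These became -0.03 and 0.36 (adjusted p = 0.896 and 0.114) without HR1 replicate 1. *Asns* did not differ detectably in either line, with log2 fold changes of 0.47 ± 0.49 and 0.48 ± 0.49, and 0.02 ± 0.12 and 0.03 ± 0.12 without HR1 replicate 1.

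**Figure D3:**
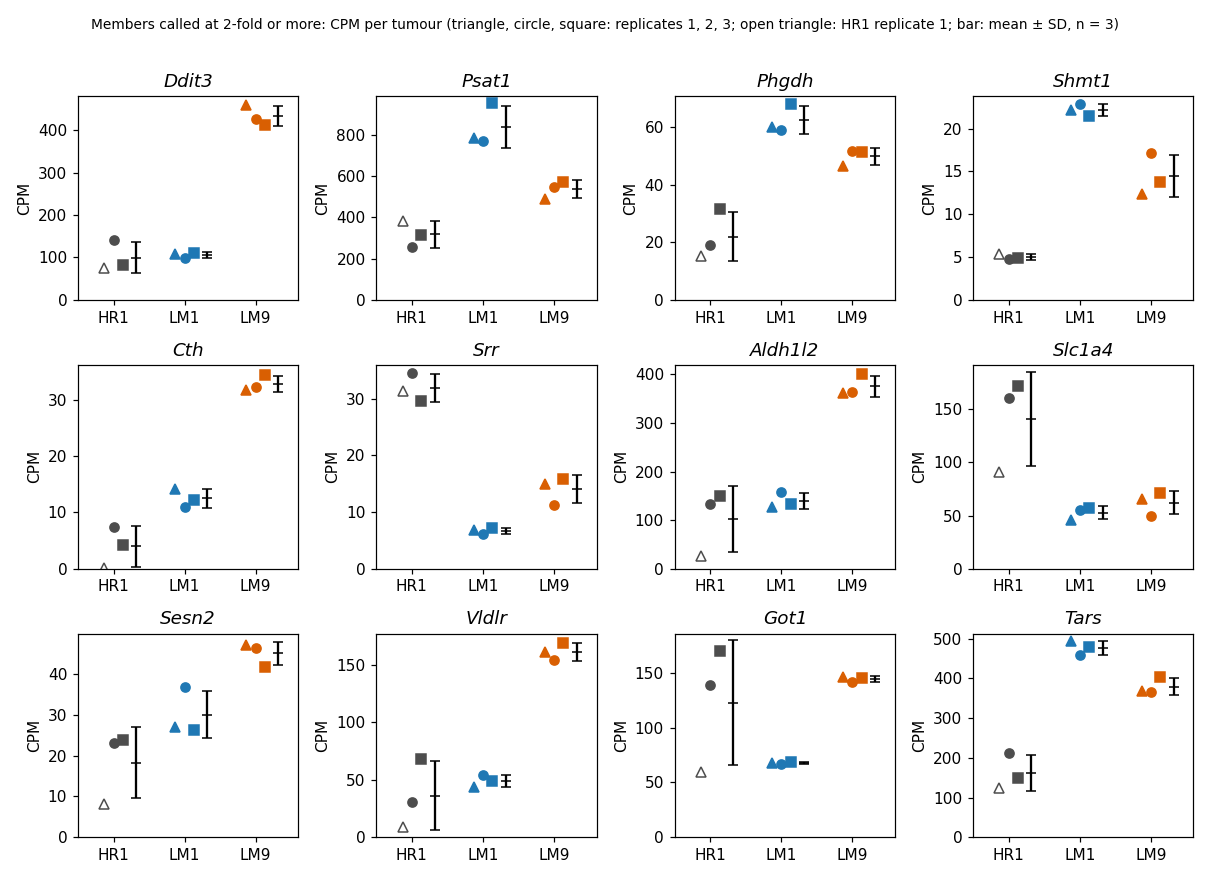
CPM (linear axes, mostly from 0) of the 12 genes called at 2-fold or more in a pairwise comparison, by tumour: triangles, circles and squares are replicates 1, 2 and 3, the open triangle is the tumour labelled HR1 replicate 1, and bars give mean ± SD (n = 3). *Ddit3*, *Cth*, *Aldh1l2*, *Sesn2* and *Vldlr* are highest in LM9, *Psat1*, *Phgdh*, *Shmt1* and *Tars* in LM1, *Srr* and *Slc1a4* in HR1, and *Got1* is low in LM1.

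Of the 7 transporters, 1 was called in LM1 (14.3%, against 35.5% of all genes) and 2 in LM9 (28.6%, against 42.3%). In each, 3 were called without HR1 replicate 1 (42.9%, against 52.8% and 55.7%). *Slc1a4* (Entrez 55963, chr11:20302180-20332713), a carrier of serine, alanine and other small neutral amino acids, had 90.6, 160.6 and 171.8 CPM in HR1, 45.8, 55.1 and 57.3 CPM in LM1, and 65.5, 49.7 and 71.6 CPM in LM9. HR1 was above both lines in every tumour. It was 2.68-fold lower in LM1 (log2 fold change -1.42 ± 0.25, adjusted p = 0.00335) and 2.26-fold lower in LM9 (-1.18 ± 0.25, adjusted p = 0.00639), and the differences were larger without HR1 replicate 1 (3.14-fold and 2.66-fold). *Slc38a2*, a glutamine carrier induced by amino acid shortage, ranged from 360.1 to 379 CPM in HR1, 438 to 511 CPM in LM1 and 555.7 to 627.5 CPM in LM9. It was 1.61-fold higher in LM9 (adjusted p = 0.00304) and missed the threshold in LM1 (1.27-fold, adjusted p = 0.0533). The folds were 1.59 and 1.27 without HR1 replicate 1, and the latter passed (adjusted p = 0.0352). *Slc7a5*, the large neutral amino acid transporter LAT1, missed the threshold with 9 tumours (adjusted p = 0.0898 in LM1 and 0.0983 in LM9). Without HR1 replicate 1 it was 1.47-fold higher in LM1 (adjusted p = 0.00462) and 1.40-fold higher in LM9 (adjusted p = 0.00844), and it passed in both without replicate 3 as well (log2 fold changes 1.25 and 1.19). Its partner chain *Slc3a2*, and the carriers *Slc1a5*, *Slc6a9* and *Slc7a11*, passed neither with 9 tumours nor without HR1 replicate 1. Without HR1 replicate 3, *Slc3a2* and *Slc1a5* passed in LM1 (log2 fold changes 0.60 and 0.74, adjusted p = 0.0499 and 0.0143). *Slc7a11* changed sign when HR1 replicate 1 was left out, from a log2 fold change of -1.04 to 0.40 in LM1 and from -1.08 to 0.35 in LM9. Other annotated genes overlap 30.2% of the exon sequence of *Slc6a9*, 15.1% of that of *Aars*, 14.1% of that of *Aldh1l2* and 10.4% of that of *Psph*.

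*Sesn2* and *Vldlr* were called in LM9. *Sesn2* (Entrez 230784, chr4:132492032-132510501), sestrin 2, restrains the growth kinase mTORC1 when leucine is short. Its level was 8.18, 23.0 and 23.7 CPM in HR1, 27.0, 36.7 and 26.3 CPM in LM1, and 47.03, 46.2 and 41.8 CPM in LM9. The models did not overlap, and *Sesn2* was 2.46-fold higher in LM9 than in HR1 (log2 fold change 1.30 ± 0.36, adjusted p = 0.0186) and 1.93-fold without HR1 replicate 1, a call lost without LM9 replicate 1 or 2 (log2 fold changes over all left-out fits from 0.95 to 1.53). *Vldlr* (Entrez 22359, chr19:27216484-27254231), the very low density lipoprotein receptor, had 9.28, 30.8 and 68.4 CPM in HR1, 43.8, 53.8 and 48.9 CPM in LM1, and 161, 153.7 and 168.9 CPM in LM9. LM9 was above every other tumour, and LM1 sat inside the wide range of HR1. It was 4.46-fold higher in LM9 (log2 fold change 2.16 ± 0.56, adjusted p = 0.0156) and 3.26-fold higher without HR1 replicate 1. In LM1 it passed only without HR1 replicate 3, the highest of its group (log2 fold change 1.28, adjusted p = 0.047). *Got1* (Entrez 14718, chr19:43499752-43524605), the cytosolic aspartate aminotransferase, had 59.1, 138.9 and 169 CPM in HR1, 68.0, 67.0 and 68.9 CPM in LM1, and 146.2, 141.5 and 145 CPM in LM9. Only the tumour labelled HR1 replicate 1 was as low as LM1. Without it *Got1* was 2.26-fold lower in LM1 than in HR1 (adjusted p = 3.9e-05), and with it the log2 fold change was -0.85 ± 0.31 (adjusted p = 0.0631). *Gpt2*, the mitochondrial alanine aminotransferase, passed no test.

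Of the 6 tRNA synthetases, which charge tRNAs with their amino acids, 2 were higher in LM1 than in HR1 (33.3%, against 16.7% of all genes called higher) and 4 in LM9 (66.7%, against 20.4%). These numbers were 3 and 4 without HR1 replicate 1, when 26.9% and 27.9% of all genes were called higher. *Tars* (Entrez 110960, chr15:11382301-11399665), the threonyl enzyme, had 124.6, 213.2 and 150 CPM in HR1, 492.8, 459 and 478.5 CPM in LM1, and 368.6, 366 and 403.6 CPM in LM9. HR1 was below every tumour of the other models. *Tars* was 2.93-fold higher in LM1 (log2 fold change 1.55 ± 0.19, adjusted p = 7.1e-04) and 2.33-fold higher in LM9 (1.22 ± 0.19, adjusted p = 0.00169), or 2.64-fold and 2.09-fold without HR1 replicate 1. *Cars*, the cysteinyl enzyme, was 1.79-fold and 1.97-fold higher (adjusted p = 0.00367 and 0.00162), or 1.64-fold and 1.80-fold without that tumour. *Sars* and *Nars*, the seryl and asparaginyl enzymes, were called in LM9 versus HR1 (1.57-fold and 1.69-fold higher, adjusted p = 0.0079 and 0.0122) and had log2 fold changes of 0.39 and -0.04 in LM1. In LM9 they were 1.47-fold and 1.49-fold higher without HR1 replicate 1. *Aars* and *Gars*, the alanyl and glycyl enzymes, passed no pairwise test with 9 tumours, and *Aars* passed in LM1 versus HR1 without HR1 replicate 1 (log2 fold change 0.32, adjusted p = 0.0279). Both lay at least 2-fold lower in the tumour labelled HR1 replicate 1 than the mean of the other HR1 tumours, with 194.4 against 425.9 and 419.8 CPM for *Aars* and 153.3 against 351 and 426.7 CPM for *Gars*.

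LM9 and LM1, the 2 lung-derived lines, were then compared directly. With the spread estimated from all 9 tumours, 4 of the 37 were called higher in LM9 and 2 lower (16.2%, against 22.0% of all genes, 11.5% higher and 10.6% lower), with a median log2 fold change of 0.14. When only the 6 LM1 and LM9 tumours were fitted, whose replicates lay closer together, 36 of the 37 could be tested, and 13 were higher and 6 lower (52.8%, against 56.3% of all genes, 28.3% and 28.0% by direction). Leaving out HR1 replicate 1 alone gave 12 higher and 4 lower (43.2%, against 45.5%, 22.9% and 22.5%), whereas 2 or 3 were called when any LM1 or LM9 tumour was left out, and the calls over all genes then fell as well, from 3102 to between 1150 and 2160. *Ddit3* was 4.10-fold higher in LM9 (log2 fold change 2.04 ± 0.24, adjusted p = 0.00141) and *Srr* 2.09-fold higher (1.06 ± 0.18, adjusted p = 0.00505), and these calls stood in every fit that was run. *Got1* was 2.12-fold higher in LM9 (1.09 ± 0.32, adjusted p = 0.0393) and *Nars* 1.74-fold higher (0.80 ± 0.19, adjusted p = 0.0186). *Psat1* was 1.555-fold lower in LM9 (-0.64 ± 0.18, adjusted p = 0.034) and *Shmt1* 1.54-fold lower (-0.62 ± 0.17, adjusted p = 0.0323). These last 4 lost their call when an LM1 or LM9 tumour was left out (any of the 6, except LM9 replicate 2 for *Shmt1*), with log2 fold changes from 1.07 to 1.10 for *Got1*, 0.73 to 0.85 for *Nars*, -0.69 to -0.53 for *Psat1* and -0.79 to -0.52 for *Shmt1*. The *Got1* call was also lost with scaling to library size only (log2 fold change 1.02, adjusted p = 0.0595) instead of TMM. With the replicate number as a block in the fit, *Got1*, *Psat1* and *Shmt1* lost their calls.

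Several genes whose LM1 and LM9 tumours lay far apart were not called with the spread of all 9 tumours and were called in the fit of the 6 LM1 and LM9 tumours. *Vldlr* was 3.28-fold higher in LM9 than in LM1 (log2 fold change 1.71 ± 0.11, adjusted p = 3.7e-07) in the fit of 6 tumours, and had 1.72 ± 0.55 (adjusted p = 0.0552) in that of 9 (adjusted p = 0.0137 without HR1 replicate 3). *Aldh1l2* had 1.43 ± 0.11 (adjusted p = 2.1e-06) and 1.44 ± 0.52 (adjusted p = 0.0772). *Cth* had 1.38 ± 0.13 (adjusted p = 6.6e-06) and 1.39 ± 0.84 (adjusted p = 0.258). *Chac1* and *Mthfd1* were lower in LM9 in the fit of 6 (1.86-fold and 1.60-fold, adjusted p = 2.7e-05 and 2.1e-04), and *Mthfd1* also passed without HR1 replicate 3 (adjusted p = 0.045). The fold changes were nearly equal in both fits, and the standard errors were not. *Atf4* differed by 1.27-fold in that fit (log2 fold change 0.35 ± 0.10, adjusted p = 0.0109). No LM9 tumour overlapped an LM1 tumour in 23 of the 37 genes, 16 of them higher in LM9 (31.9% of all genes) and 7 lower (31.1%). The 7 lower were *Chac1*, *Psat1*, *Phgdh*, *Shmt1*, *Mthfd1*, *Aars* and *Tars*.

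**Figure D4:**
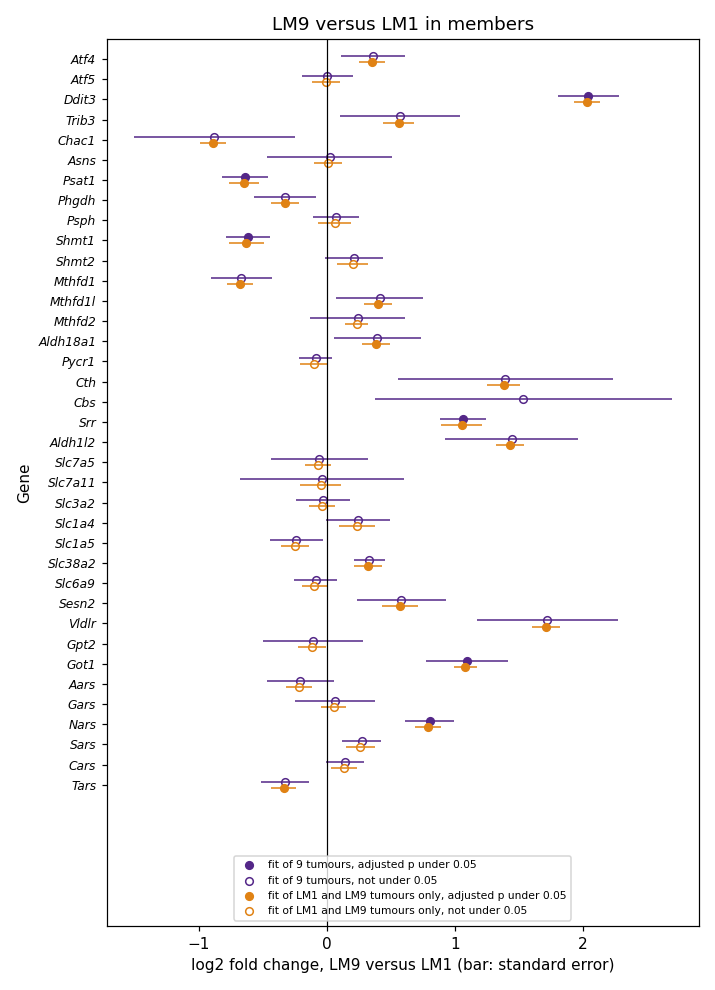
Log2 fold change of LM9 versus LM1 with its standard error (horizontal bars) for the 37 genes, with the spread from all 9 tumours (purple) and from the 6 LM1 and LM9 tumours (orange, absent for *Cbs*); filled points have an adjusted p under 0.05. The points of a gene nearly coincide while the purple bars are longer, and 6 purple against 19 orange points are filled.

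Further genes of the same pathways were counted from lists. Over all genes, 35.5% were called in LM1 versus HR1, 42.3% in LM9 versus HR1 and 22.0% in LM9 versus LM1, and without HR1 replicate 1 these shares were 52.8%, 55.7% and 45.5%. Of 36 other genes of the ATF4 and eIF2α pathway, 8 were higher and 5 lower in LM1 than in HR1, 15 and 4 in LM9 than in HR1, and 8 and 2 in LM9 than in LM1. These are 36.1%, 52.8% and 27.8% of the list, and the median log2 fold changes were 0.17, 0.58 and 0.35. Without HR1 replicate 1 the counts were 13 and 10, 20 and 5, and 15 and 5 (63.9%, 69.4% and 55.6%), with medians of 0.04, 0.66 and 0.35. *Ero1a*, named *Ero1l* in the study, encodes an endoplasmic reticulum oxidase that CHOP is known to induce. The study reports it as a direct target of NFIB, from binding at its promoter and from knockout and overexpression of *Nfib*. The part of either factor in its levels here was not tested. *Ero1a* had 37.2, 65.7 and 72.3 CPM in HR1, 111, 130.8 and 131.6 CPM in LM1, and 896.5, 1232 and 805.6 CPM in LM9. Every LM9 tumour was above every LM1 tumour, and the log2 fold change between them was 2.97 ± 0.28 (adjusted p = 5.4e-04). *Ppp1r15a*, the stress-induced phosphatase subunit that reverses eIF2α phosphorylation, had means of 55.3, 37.8 and 123.5 CPM in HR1, LM1 and LM9 (LM9 versus LM1 log2 fold change 1.71 ± 0.22, adjusted p = 0.00199). *Atf3*, a further stress factor, had means of 95.4, 109 and 427 CPM (1.97 ± 0.40, adjusted p = 0.011), and *Eif2ak2*, the kinase PKR, of 37.5, 37.6 and 79.7 CPM (1.08 ± 0.15, adjusted p = 0.00274). *Atf3* is also on the list of genes that tissue dissociation induces.

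Of 28 other folate and one-carbon genes, 1 was higher and 4 lower in LM1 than in HR1, 3 and 9 in LM9 than in HR1, and 0 and 5 in LM9 than in LM1, with medians of 0.09, -0.45 and -0.33 (17.9%, 42.9% and 17.9% of the list called). The one called at 2-fold or more in LM9 versus LM1 was *Gcsh* of the glycine cleavage system (log2 fold change -1.05 ± 0.18, adjusted p = 0.00552). The counts without HR1 replicate 1 were 3 and 7, 3 and 12, and 2 and 12. Of 17 other genes of the cytosolic tRNA synthetases and their scaffold, 5 were higher and 0 lower in LM1 than in HR1, 4 and 1 in LM9 than in HR1, and 1 and 4 in LM9 than in LM1 (29.4% of the list each time). They were 8 and 2, 5 and 3, and 2 and 6 without HR1 replicate 1. For 17 mitochondrial synthetases these numbers were 1 and 4, 2 and 4, and 1 and 0 (29.4%, 35.3% and 5.88%), and 2 and 4, 3 and 6, and 2 and 3 without that tumour. For 36 further amino acid transporters and enzymes they were 6 and 6, 7 and 9, and 2 and 3 (33.3%, 44.4% and 13.9%), and 9 and 10, 13 and 16, and 7 and 13 without it. Of these, *Gpt*, the cytosolic alanine aminotransferase, had means of 4.56 CPM in LM1 and 23.5 CPM in LM9 (log2 fold change 2.36 ± 0.51, adjusted p = 0.0143). The carriers *Slc36a4* and *Slc38a4* were lower in LM9 than in LM1 (log2 fold changes -1.78 and -1.53, adjusted p = 0.00809 and 0.0264), and so was *Slc1a3*, at means of 0.604 and 0.0147 CPM.

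Markers of other cells and of handling moved with the models. The summed level of 12 immediate early genes that dissociation is known to induce was 3920, 2674 and 2463 CPM in HR1 replicates 1 to 3, 4571 to 6892 CPM in LM1 and 6771 to 12040 CPM in LM9. Of the 12, 6 were higher and 1 lower in LM1 than in HR1, 8 and 1 in LM9 than in HR1, and 5 and 0 in LM9 than in LM1, against 16.7%, 20.4% and 11.5% of all genes called higher. These sums follow the same order of models as the sum of the 37 genes, and their part in the results was not tested. The 10 fibroblast genes summed to 35900, 22600 and 23290 CPM in HR1 replicates 1 to 3, 10680 to 14050 CPM in LM1 and 9152 to 10700 CPM in LM9, and *Dcn* alone was 17610 CPM of the first of these. The 17 leukocyte genes summed to 756, 1204 and 277.9 CPM in HR1, 248.7 to 276.7 CPM in LM1 and 226.5 to 286.4 CPM in LM9. Of the leukocyte genes, 7 were lower in LM1 than in HR1, 12 in LM9 than in HR1 and 2 in LM9 than in LM1, where 1 was higher, and of the fibroblast genes 5, 9 and 2 were lower, against 18.7%, 21.9% and 10.6% of all genes called lower. The macrophage gene *C1qa* had 169.9, 217.5 and 43.3 CPM in HR1 replicates 1 to 3, *Lyz2* had 87.2, 208 and 38.8 CPM, and *Csf1r* had 66.1, 74.7 and 17.0 CPM, so replicate 3 was the lowest of its group in each. *Cd68* had 24.2, 121.5 and 41.2 CPM in HR1, 15.9 to 17.9 CPM in LM1 and 107 to 138 CPM in LM9, and *Ptprc* did not exceed 11.3 CPM in any tumour. The 9 endothelial genes listed summed to 13.7, 39.9 and 11.6 CPM in HR1, 167 to 230 CPM in LM1 and 261 to 298 CPM in LM9, of which *Cdh5* alone gave 136 to 190 CPM in LM1 and 228 to 253.5 CPM in LM9, whereas *Pecam1* stayed at or under 1.25 CPM in those 6 tumours. *Kdr* had 0.432 to 1.73 CPM in HR1, 22.3 to 34.0 CPM in LM1 and 23.3 to 37.3 CPM in LM9. Of the endothelial genes, 2 were higher and 0 lower in LM1 than in HR1, 2 and 3 in LM9 than in HR1, and 0 and 0 in LM9 than in LM1. The 6 listed mammary epithelial genes summed to 7.55, 35.2 and 121 CPM in HR1, 157.5 to 181 CPM in LM1 and 14.4 to 18.0 CPM in LM9, most of it *Krt14* in LM1 and LM9, and 1, 1 and 3 of them were lower in the same 3 comparisons, with 0 higher. The part of fibroblasts, leukocytes and the other cell types in the differences was not tested. In bulk samples, fewer cells of a type and less RNA per cell cannot be told apart.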

How the data were processed

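RNA was extracted from sorted GFP+ tumour cells and TruSeq stranded mRNA libraries were sequenced single-end. The authors aligned reads to mm10 with STAR and deposited, per tumour, raw whole-number counts of 5′ read ends per gene under an exon union model (QuasR qCount); tool versions and the strand setting are not given in the sources used here. No gene in the tables has a third-highest count under 7. Depth was 32393958 to 46681945 counts per tumour, and intervals or floors would cover counting error only. Models and replicate numbers came from the titles. Symbols, coordinates and exon lengths came from GENCODE M21 (GRCm38, the build of mm10), with 14085 of 14108 genes matched.

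From the counts, CPM were computed with TMM factors (0.928 to 1.05), and edgeR 4.0.16 (R 4.3.3) quasi-likelihood tests were fitted to all 14086 genes that passed filterByExpr, in one model of the 3 groups, with Benjamini-Hochberg adjustment over all of them and a threshold of 0.05. Standard errors are the log2 fold change divided by the square root of F. The study states limma-voom for its own tests and no design. Alternatives were DESeq2 1.42.0, limma-voom (limma 3.58.1), DESeq2 size factors, library size only, no low-count filter, a replicate block, only the groups compared, and each tumour left out. The members and the gene lists were chosen with earlier results of these data known, so no p-value was computed over a list. All members are named; values per tumour are given for those called at 2-fold or more in a pairwise comparison, and for the companion lists at most 4 genes per list called at 2-fold or more in LM9 versus LM1, by smallest p. On simulated LM9 versus LM1 counts with the spread of all 9 tumours (13935 genes), edgeR recovered 13% of 2-fold and 70% of 4-fold changes, with 8.79% false calls. With the spread of the LM1 and LM9 tumours (13556 genes) it recovered 92% and 99%, with 5.91% false calls. Far fewer genes were changed in the simulated counts than were called in the data, so these shares do not carry over to the data. Same-numbered tumours did not deviate together (r from -0.11 to 0.13, over 0.1 in 1 of 9 pairs), so numbers were not taken as pairs.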

Additional observations from a re-analysis of the deposited data

Results flagged for a closer look

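For 6 of the 37 genes the effect against HR1 differed between the lung-derived lines, by the direct test of LM9 versus LM1 (the quasi-likelihood test of edgeR, adjusted over all tested genes). This is 16.2% of the 37, against 22.0% of all genes. *Ddit3* was higher in LM9 than in LM1 in 3 of 3 tumours, by 2.04 on the log2 scale (adjusted p = 0.00141), and was called against HR1 in LM9 but not in LM1. *Srr* was called lower than in HR1 in both lines, and less far in LM9, by 1.06 (adjusted p = 0.00505). *Got1* was called against HR1 in neither line, with log2 fold changes of 0.24 in LM9 and -0.85 in LM1, a difference of 1.09 (adjusted p = 0.0393). *Nars* was called higher in LM9 and had a log2 fold change of -0.04 in LM1, a difference of 0.80 (adjusted p = 0.0186). *Psat1* and *Shmt1* were called higher than in HR1 in both lines, with smaller fold changes in LM9, the differences being -0.64 (adjusted p = 0.034) and -0.62 (adjusted p = 0.0323). In each of the 6 genes all LM9 tumours lay on one side of all LM1 tumours. Of all genes, 31.9% did so with LM9 higher and 31.1% with LM9 lower. The 6 were picked by their call in this comparison, so the lack of overlap adds no support. *Ddit3* and *Srr* kept their call in every fit that was run, and *Got1*, *Nars*, *Psat1* and *Shmt1* lost theirs when an LM1 or LM9 tumour was left out (any of the 6, except LM9 replicate 2 for *Shmt1*). *Got1* also lost its call with scaling to library size only (adjusted p = 0.0595). With the replicate number as a block in the fit, *Got1*, *Psat1* and *Shmt1* lost theirs.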

How the results depend on the processing

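Of 756 values of the 12 genes with values per tumour under the alternatives, 677 kept their direction and their side of the threshold, 28 newly passed, 45 no longer passed and 6 changed sign. Without HR1 replicate 1 the sign changed in LM1 versus HR1 for *Ddit3* (-0.07), *Aldh1l2* (-0.02) and *Vldlr* (-0.01), and in LM9 versus HR1 for *Got1* (-0.09), and without HR1 replicate 3 for *Ddit3* in LM1 versus HR1 (-0.03) and for *Got1* with both lines averaged (0.00). Over the tumours left out, these values went up to 0.44 for *Ddit3*, 0.81 for *Aldh1l2*, 1.28 for *Vldlr* and 0.54 for *Got1* in LM9, and with both lines averaged *Got1* went down to -0.63. All 8 calls in LM1 versus HR1, 13 of 18 in LM9 versus HR1 and 2 of 6 in LM9 versus LM1 (*Ddit3* and *Srr*) stood in every alternative. DESeq2 called 15 members in LM1 versus HR1 and 10 in LM9 versus LM1, where 8 and 6 were reported (5852 and 4304 of all genes, where 4994 and 3102 were reported, and 6669 in LM9 versus HR1, where 5958 were), 9 of the folate list in LM1 versus HR1, 8 of the cytosolic synthetases in LM9 versus HR1 and 2 of the mitochondrial ones in LM9 versus LM1; the cause was not tested. Its share of false calls on counts simulated for LM9 versus LM1 was 28.6% with the spread of all 9 tumours. It was 17.8% with that of the LM1 and LM9 tumours. Far fewer genes were changed in the simulated counts than were called in the data, so these shares do not apply to the calls reported here.

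With only the groups compared in the fit, 3008 genes were called in LM1 versus HR1 (4994 reported), 4247 in LM9 versus HR1 (5958 reported) and 7709 in LM9 versus LM1 (3102 reported), and 19 members in the latter. For the lists, this fit called in LM1 versus HR1 5 other ATF4 genes, 7 transporters and enzymes, 3 cytosolic and 3 mitochondrial synthetases and 2 folate genes; in LM9 versus HR1 1 cytosolic and 2 mitochondrial synthetases and 5 folate genes; and in LM9 versus LM1 25, 20, 11, 7 and 19 in the same order. By construction this fit leaves the HR1 tumours out of the spread of LM9 versus LM1.

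Leaving out 1 tumour gave 8 to 16 members in LM1 versus HR1 (3121 to 7453 genes), 13 to 24 in LM9 versus HR1 (3768 to 7862), 2 to 16 in LM9 versus LM1 (1150 to 6413) and 11 to 22 with both lines averaged (4928 to 7902). The highest values were without HR1 replicate 1. In the order LM1 versus HR1, LM9 versus HR1 and LM9 versus LM1, the other ATF4 genes gave 5 to 23, 12 to 25 and 3 to 20, the transporters and enzymes 8 to 19, 11 to 29 and 2 to 20, the cytosolic synthetases 3 to 10, 1 to 8 and 1 to 8, the mitochondrial ones 3 to 6, 2 to 9 and 1 to 5, and the folate genes 1 to 10, 2 to 15 and 4 to 14.

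The replicate numbers share no stated litter or day, and a tumour correlated best with its own number in 7 of 18 cases. With the replicate number as a block, 4204, 5078 and 2295 genes were called in the 3 pairwise comparisons and 5234 with both lines averaged, with 9, 19, 3 and 16 members. In LM9 versus LM1 the members kept under the block were *Ddit3*, *Srr* and *Nars*. No scaling moved the median of all genes by more than 0.1 on the log2 scale. With 3 tumours per model and the spread of all 9, small changes can be missed. Most 2-fold changes simulated with that spread were missed, but it is wider than the spread of the LM1 and LM9 tumours. Far fewer genes were changed in the simulated counts than were called here, so the share missed in the data is not known.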
